A study of Mus musculus with 16 samples.

Results

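The genes described here are 9 transcription factors that build the heart and the mesoderm around it, chosen by name from the 21887 protein-coding genes of the RefSeq table of GRCm38.p6, the same build as mm10. They are Nkx2-5, Tbx5, Tbx20, Isl1, Hand1, Hand2, Mef2c, Foxf1 and Gata5. The data are ChIP-seq peak lists, which record where a histone mark was called enriched on the genome. All cells came from CJ9, a mouse embryonic stem cell line, either WT or arid4b-delta, a line altered in Arid4b, whose product is a subunit of a histone deacetylase complex. Which part of Arid4b is altered, and whether the line is 1 clone, is not stated in the labels. WT and arid4b-delta cells were each taken towards endoderm or mesoderm for 5 days and fixed with formaldehyde for 8 min. The 3 marks H3K4me3, H3K27me3 and H3K27ac were profiled in each of the 4 conditions, giving 12 libraries with 1 library per group. There are thus no replicates, no difference below carries a test, and a peak list gives no sequencing depth.

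These factors act in a shared network. GATA, T-box, NK-2 homeobox, HAND and MEF2 proteins bind many of the same cardiac enhancers and switch on each other's genes, and loss of many of them disturbs heart formation in the mouse embryo. In embryonic stem cells such developmental regulators usually carry H3K4me3, a mark of promoters that are active or ready, together with H3K27me3, the mark laid down by Polycomb repressive complex 2. That combination is called bivalent, and activation of the gene is usually accompanied by loss of H3K27me3 and gain of H3K27ac, a mark of active promoters and enhancers.

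H3K27ac was the simplest result. No member had an H3K27ac peak at its promoter in any of the 4 conditions, where the promoter is the 1000 bp either side of a gene end and a peak counts if it overlaps by 1 bp. Among all protein-coding genes 26.6% had one in WT endoderm, 26.4% in arid4b-delta endoderm, 29.6% in WT mesoderm and 31.5% in arid4b-delta mesoderm. H3K27me3, in contrast, lay at the promoters of 6 members in WT endoderm, 8 in arid4b-delta endoderm, 6 in WT mesoderm and 6 in arid4b-delta mesoderm. The shares of all genes were 14.4%, 17.2%, 9.34% and 16.3% in the same order. H3K4me3 marked 4, 7, 6 and 7 members, against 53.3%, 58.6%, 55.9% and 59.7% of all genes. In the full lists most members thus had the Polycomb mark at the promoter in every condition, and none had an acetylated promoter. The H3K27me3 counts rest on the full lists. With the 4 lists matched in length by fold they were 4, 2, 6 and 4, and with the upper 50% of each list 4, 5, 2 and 3. In WT mesoderm the strongest promoter peaks at Nkx2-5, Hand1, Hand2 and Gata5 had −log10 q-values of 0.962, 1.11, 0.995 and 0.784. The one at Tbx20 had a fold of 1.19 with a −log10 q-value of 6.69, and the one at Foxf1 a fold of 2.67 with 2.97.

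**Figure D1:**
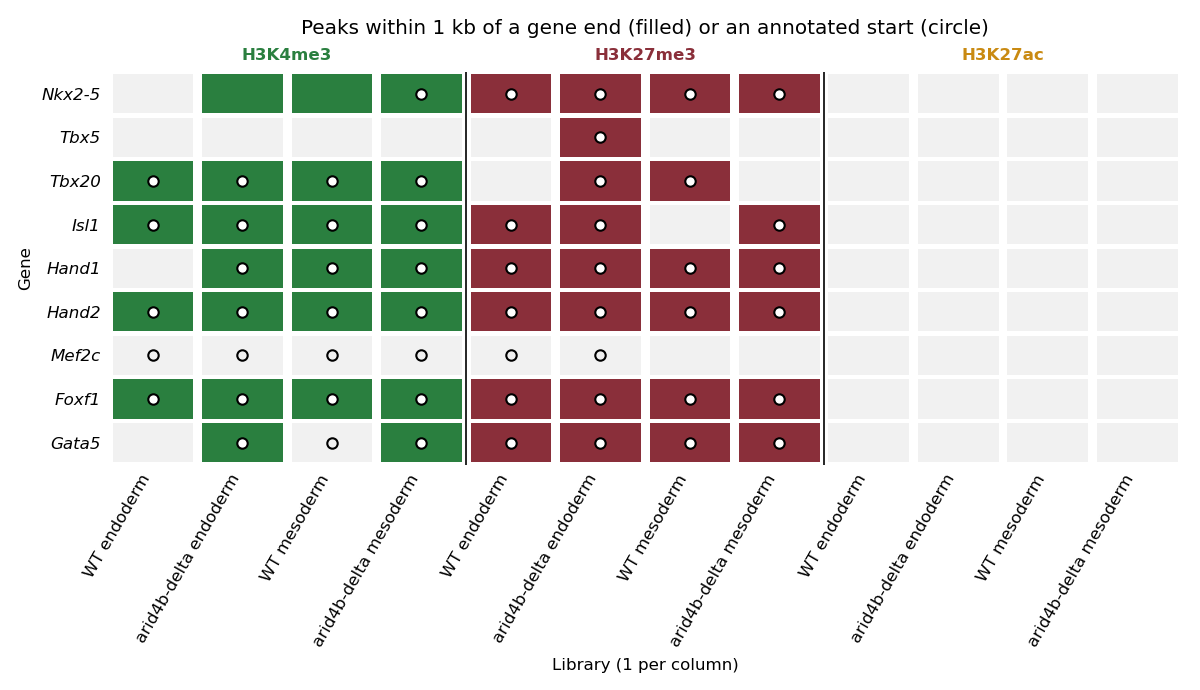
Promoter peaks of the 9 genes. Each row is a gene and each column 1 library, a filled cell is a peak within 1000 bp of a gene end and a circle a peak within 1000 bp of an annotated transcription start, the gene ends being used for Tbx5, Hand1 and Foxf1. The H3K27ac columns are empty for all 9 genes, while H3K27me3 fills 6, 8, 6 and 6 cells of its 4 columns.

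The lineage labels were checked with promoter H3K27ac at marker genes of each fate. Of 7 primitive streak and mesoderm markers, 3 (T, Tbx6 and Pdgfra) had a peak in WT mesoderm and 0 had one in the other 3 conditions. None of the 6 definitive endoderm markers had a peak in any condition, Sox17, Foxa2, Gata4 and Gata6 among them. Of 6 pluripotency markers, 5 were acetylated in WT endoderm, 4 in arid4b-delta endoderm, 2 in WT mesoderm and 5 in arid4b-delta mesoderm. Neuroectoderm markers had a peak at 1, 1, 0 and 2 of 5 genes, Otx2 in each of the 3 conditions with any. Markers of the labelled fate therefore had H3K27ac in WT mesoderm alone, at 42.9% of those listed against 29.6% of all genes there. Promoter H3K27me3 lay at 7, 6, 4 and 6 of the 7 primitive streak and mesoderm markers in the same order of conditions. Pdgfra was among the 4 of WT mesoderm. What part the makeup of the cultures has in the results below was not tested. The lists also differ in how much they call. H3K4me3 peaks spanned 12.7, 21.0, 16.3 and 23.7 Mb and H3K27me3 peaks 14.1, 21.4, 6.91 and 16.9 Mb in WT endoderm, arid4b-delta endoderm, WT mesoderm and arid4b-delta mesoderm. A difference between genotypes and a difference in how much of each library was called cannot be told apart here, so each count of members is set beside the same count over all genes.

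The promoter sequences of the members differ in CpG content. The RefSeq promoter table holds 6 of the 9 genes, and not Tbx5, Hand1 and Foxf1. The 250 bases before the annotated start are printed for 5 genes on GRCm38.p6, 5′ to 3′ on the gene's own strand, with CpG dinucleotides in capitals, because CpG-dense promoters are those where both methylation marks are usually found. Isl1 lies at chr13:116309689-116309938 on the minus strand, Tbx20 at chr9:24774304-24774553 on the minus strand and Nkx2-5 at chr17:26841566-26841815 on the minus strand. Hand2 lies at chr8:57320733-57320982 on the plus strand. Mef2c is shown at its first start, chr13:83503784-83504033, and at an internal start, chr13:83523406-83523655, both on the plus strand.
Isl1: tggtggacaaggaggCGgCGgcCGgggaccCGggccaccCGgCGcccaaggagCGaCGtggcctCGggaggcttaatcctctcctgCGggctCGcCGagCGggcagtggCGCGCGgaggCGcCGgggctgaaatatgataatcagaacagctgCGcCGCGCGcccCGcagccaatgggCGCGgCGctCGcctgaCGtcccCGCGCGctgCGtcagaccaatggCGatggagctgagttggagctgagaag
Tbx20: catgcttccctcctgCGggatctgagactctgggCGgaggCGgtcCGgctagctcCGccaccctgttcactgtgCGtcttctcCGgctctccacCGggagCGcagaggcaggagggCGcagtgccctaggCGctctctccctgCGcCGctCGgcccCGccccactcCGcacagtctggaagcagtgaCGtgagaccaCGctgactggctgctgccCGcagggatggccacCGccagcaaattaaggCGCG
Nkx2-5: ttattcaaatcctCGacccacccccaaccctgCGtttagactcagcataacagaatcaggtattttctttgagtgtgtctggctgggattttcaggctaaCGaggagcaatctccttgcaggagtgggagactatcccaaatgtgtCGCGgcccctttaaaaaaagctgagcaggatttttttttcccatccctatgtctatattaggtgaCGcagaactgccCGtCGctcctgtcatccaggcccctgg
Hand2: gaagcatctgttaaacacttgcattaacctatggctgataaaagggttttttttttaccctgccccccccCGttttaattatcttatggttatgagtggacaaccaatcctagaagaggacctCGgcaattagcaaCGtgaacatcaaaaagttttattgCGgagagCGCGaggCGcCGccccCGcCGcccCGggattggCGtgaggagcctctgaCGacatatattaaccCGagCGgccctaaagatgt
Mef2c, first start: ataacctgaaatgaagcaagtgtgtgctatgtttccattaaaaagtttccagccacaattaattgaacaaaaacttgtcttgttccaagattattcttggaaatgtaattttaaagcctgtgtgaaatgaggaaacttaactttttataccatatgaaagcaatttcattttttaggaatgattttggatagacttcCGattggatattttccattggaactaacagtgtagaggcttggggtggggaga
Mef2c, internal start: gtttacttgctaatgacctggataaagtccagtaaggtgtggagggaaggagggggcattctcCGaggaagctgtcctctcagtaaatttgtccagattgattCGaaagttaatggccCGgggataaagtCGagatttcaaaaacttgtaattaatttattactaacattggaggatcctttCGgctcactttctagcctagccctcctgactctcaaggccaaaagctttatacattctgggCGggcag

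Isl1 had 33 CpG in these 250 bases, more than 96.0% of the 32851 promoters of the table, whose median is 6. Tbx20 and Gata5 had 22 each, Hand2 15 and Nkx2-5 8, while Mef2c had 1 at its first start and 6 at the internal start. G and C made up 71.2% of the Isl1 window, 68.8% at Tbx20, 70.0% at Gata5, 49.2% at both Hand2 and Nkx2-5, and 33.6% at the first Mef2c start, against a median of 52.4%. H3K4me3 followed the sequence only in part. Peaks covered all 250 bases of Isl1 in all 4 libraries and none of the first Mef2c start or of Nkx2-5 in any. At Tbx20 they covered 250 bases in WT endoderm, 198 in arid4b-delta endoderm, 0 in WT mesoderm and 250 in arid4b-delta mesoderm, and at Hand2 16, 47, 62 and 250 in the same order. H3K27me3 also followed the sequence only in part. Its peaks covered all 250 bases of Nkx2-5 in all 4 libraries and none of the first Mef2c start in any. At the more CpG-dense Tbx20 they covered 0, 250, 0 and 0 bases in the same order.

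The windows were also searched on both strands for short letters bound by the members' own families, which describe the sequence and are no evidence of binding. The GATA letters AGATAA occurred at Hand2 alone, against 9.99% of all promoters of this length. The T-box letters AGGTGT occurred only at the internal Mef2c start, against 11.8%, and the NK-2 letters TNAAGTG at no member, against 10.1%. The E-box CANNTG, read by the HAND proteins, occurred in 66.2% of promoters, with 2 matches at Hand2, 2 at the first Mef2c start and 1 each at Nkx2-5, Isl1, Gata5 and the last Mef2c start. A match to the E-box and to the NK-2 letters can overlap. TATAAA occurred at the first and internal Mef2c starts, against 12.4% of promoters.

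Nkx2-5, the NK-2 homeobox factor of cardiac progenitors, lies at chr17:26838664-26844988 with its annotated start at 26841565. H3K27me3 covered 37.9% of the gene with 20 kb each side in WT endoderm, 43.6% in arid4b-delta endoderm, 24.5% in WT mesoderm and 42.9% in arid4b-delta mesoderm. The longest peak measured 9.6, 19.2, 8.2 and 17.7 kb in the same order, and in all 4 libraries it ran over the whole printed window. H3K4me3 was absent in WT endoderm, covered 1.9 kb in arid4b-delta endoderm, 0.7 kb in WT mesoderm and 2.9 kb in arid4b-delta mesoderm. Most of this H3K4me3 was away from the start. The peaks that count as promoter peaks sit near the lower gene end, such as chr17:26839024-26839750 in arid4b-delta endoderm with a fold enrichment of 4.71, 1815 bp from the start on the downstream side. Fold enrichment here is the authors' own value for a peak over its background. A peak beside the start, at chr17:26841034-26841553 with a fold of 5.25, was called in arid4b-delta mesoderm alone and ended 12 bp from it. Another site, with peaks 8131 to 9145 bp upstream of the start, next to the long non-coding RNA gene LOC115488773, was marked in the 3 libraries other than WT endoderm.

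Tbx5, the T-box factor of the first heart field and the forelimb, lies at chr5:119796514-119885220. It was the only member with no H3K4me3 peak anywhere in its locus in any library. H3K27me3 covered 3.03% of the locus in WT endoderm, 5.9% in arid4b-delta endoderm, 2.08% in WT mesoderm and 7.24% in arid4b-delta mesoderm. All 4 libraries had a peak that began between 4141 and 5117 bp inside the lower gene end, and it spanned 5.9 kb in arid4b-delta endoderm and 5.8 kb in arid4b-delta mesoderm. A peak within 1000 bp of the gene end itself was called in arid4b-delta endoderm alone, with a fold of 2.67. The nearest peaks in WT endoderm and arid4b-delta mesoderm lay 1144 and 1215 bp from it, just outside the limit.

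Tbx20, a T-box factor needed for growth of the heart tube, lies at chr9:24720812-24774303 with its start at 24774303. An H3K4me3 peak at its promoter was called in all 4 libraries, with folds of 8.69 in WT endoderm, 13.3 in arid4b-delta endoderm, 5.92 in WT mesoderm and 10.7 in arid4b-delta mesoderm, and so was a site 6637 to 6853 bp upstream of the start. H3K27me3 differed, covering 0 kb in WT endoderm, 15.9 kb in arid4b-delta endoderm, 3.2 kb in WT mesoderm and 0 kb in arid4b-delta mesoderm. The arid4b-delta endoderm signal was 3 peaks, 1 of 15.4 kb over the start and others of 260 and 151 bp. The longest had a fold of 1.75 and a −log10 q-value of 1.04. The WT mesoderm signal was 5 peaks of 1.1 kb or less with folds of 1.03 to 1.24. In the full lists the genotype with the mark differed between the lineages. The WT mesoderm promoter call was lost with a window of 500 bp, with 500 bp covered and with the upper 50% of peaks, and the arid4b-delta endoderm call with the upper 50% and with lists matched in length. The same promoter pattern, H3K27me3 restricted to arid4b-delta in endoderm and to WT in mesoderm, was found at 33 genes, or 0.151% of all, and the difference between lineages was not tested.

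Gata5, a GATA factor of endocardium and early endoderm, lies at chr2:180325088-180335503 with its start at 180334679. H3K27me3 lay at its promoter in all 4 libraries, covering 3.5 kb in WT endoderm, 5.0 kb in arid4b-delta endoderm, 1.9 kb in WT mesoderm and 5.6 kb in arid4b-delta mesoderm. H3K4me3 was absent in WT endoderm, and covered 1.0 kb in arid4b-delta endoderm, 0.3 kb in WT mesoderm and 1.1 kb in arid4b-delta mesoderm. The WT mesoderm peak, with a fold of 3.92, lay 398 bp from the annotated start but 1222 bp from the gene end, so it counts at the start and not at the gene end. Gata5 therefore appears as marked in arid4b-delta alone in mesoderm only under the gene end rule.

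Isl1, the LIM homeobox factor of second heart field progenitors, lies at chr13:116298270-116309688 with its start at 116309688. Its H3K4me3 peak over the start was present in all 4 libraries, with folds of 16.3 in WT endoderm, 17.2 in arid4b-delta endoderm, 10.8 in WT mesoderm and 17.3 in arid4b-delta mesoderm. H3K27me3 covered 16.7 kb in WT endoderm, 15.4 kb in arid4b-delta endoderm, 1.5 kb in WT mesoderm and 15.0 kb in arid4b-delta mesoderm. WT mesoderm stood apart. There 3 short peaks of 0.7 kb at most lay inside the gene, 1 of them overlapping an H3K4me3 peak of that library, and none came within 1000 bp of the start, so the CpG-dense window printed above carried H3K4me3 without H3K27me3. In the other 3 libraries H3K27me3 covered all 250 of those bases. By gene ends, Isl1 was the only member with H3K4me3 alone at its promoter in WT mesoderm.

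Mef2c, a MADS-box factor that acts downstream of Isl1 in the second heart field, lies at chr13:83504017-83667079. It had no peak of any mark within 1000 bp of either gene end in any library, including the CpG-poor first start. All its H3K4me3 lay at the internal start at 83523656. The highest fold of H3K4me3 there was 4.87 in WT endoderm, 6.56 in arid4b-delta endoderm, 8.19 in WT mesoderm and 11.6 in arid4b-delta mesoderm, and the peaks covered 0.2, 1.4, 1.0 and 1.5 kb. H3K27me3 beside it covered 1.4 kb in WT endoderm, 2.9 kb in arid4b-delta endoderm, 0 kb in WT mesoderm and 1.3 kb in arid4b-delta mesoderm. WT mesoderm was thus the library with no H3K27me3 peak at this locus, and no peak was found at the last annotated start in any library.

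Hand1, a basic helix-loop-helix factor of the left ventricle and extraembryonic mesoderm, lies at chr11:57828713-57832147. H3K27me3 covered 6.9 kb in WT endoderm, 11.1 kb in arid4b-delta endoderm, 1.8 kb in WT mesoderm and 10.5 kb in arid4b-delta mesoderm. A single peak ran over the whole gene in the 3 libraries other than WT mesoderm, measuring 5.4, 8.6 and 8.7 kb, while WT mesoderm had 3 peaks of at most 1.0 kb. H3K4me3 covered little, 0 kb in WT endoderm, 0.2 kb in arid4b-delta endoderm, 0.5 kb in WT mesoderm and 0.2 kb in arid4b-delta mesoderm. WT mesoderm alone had a peak inside the gene, of 343 bp with a fold of 5.61 and 405 bp from the upper gene end. Hand1 was the only member with more H3K4me3 in WT than in arid4b-delta mesoderm.

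Hand2, the related factor of the right ventricle, outflow tract and pharyngeal arches, lies at chr8:57320983-57324517. It had the broadest Polycomb domain of the 9 genes. H3K27me3 covered 80.7% of the locus in WT endoderm, 82.7% in arid4b-delta endoderm, 54.0% in WT mesoderm and 79.1% in arid4b-delta mesoderm. In 3 libraries this was essentially a single peak, of 44.0 kb in WT endoderm, 44.2 kb in arid4b-delta endoderm and 45.4 kb in arid4b-delta mesoderm. In WT mesoderm the same stretch was called as 10 peaks, the longest 9.6 kb. The longest peak had a low fold, 1.37 in WT endoderm, 1.45 in arid4b-delta endoderm, 1.3 in WT mesoderm and 2.17 in arid4b-delta mesoderm. Its −log10 q-values were 1.08, 1.44, 0.995 and 2.71 in the same order. With the upper 50% of each list by fold, Hand2 had no promoter H3K27me3 call in any library. H3K4me3 covered 0.6, 3.0, 2.6 and 4.5 kb in WT endoderm, arid4b-delta endoderm, WT mesoderm and arid4b-delta mesoderm, at the promoter and at further sites that include 1 from 7810 bp upstream and 1 from 16205 bp past the far gene end. The promoter peak came within 108 bp of the end of the long non-coding RNA gene Hand2os1, and a peak there cannot be assigned to 1 of the pair.

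Foxf1, a forkhead factor of lateral plate and splanchnic mesoderm, lies at chr8:121084386-121088154. H3K27me3 covered 46.8% of its locus in WT endoderm, 53.6% in arid4b-delta endoderm, 33.3% in WT mesoderm and 53.2% in arid4b-delta mesoderm, with longest peaks of 19130, 22876, 9955 and 23301 bp. H3K4me3 covered 0.9 kb in WT endoderm, 3.1 kb in arid4b-delta endoderm, 3.1 kb in WT mesoderm and 3.9 kb in arid4b-delta mesoderm. The H3K4me3 peak just outside the lower gene end had a fold of 4.56 in WT endoderm, 20.7 in arid4b-delta endoderm, 11.4 in WT mesoderm and 21.5 in arid4b-delta mesoderm. In the last 3 libraries it also overlapped an end of Fendrr, the long non-coding RNA gene next to Foxf1. The far H3K4me3 site of the locus, seen in all 4 libraries, lies at an end of Mthfsd. In WT endoderm the promoter peak gave 254 bp of the 0.9 kb, and that far site gave the rest. The only H3K27ac peak at any member locus was there too, in arid4b-delta mesoderm, at chr8:121108032-121108230, 183 bp from the Mthfsd end and with a fold of 6.35.

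**Figure D2:**
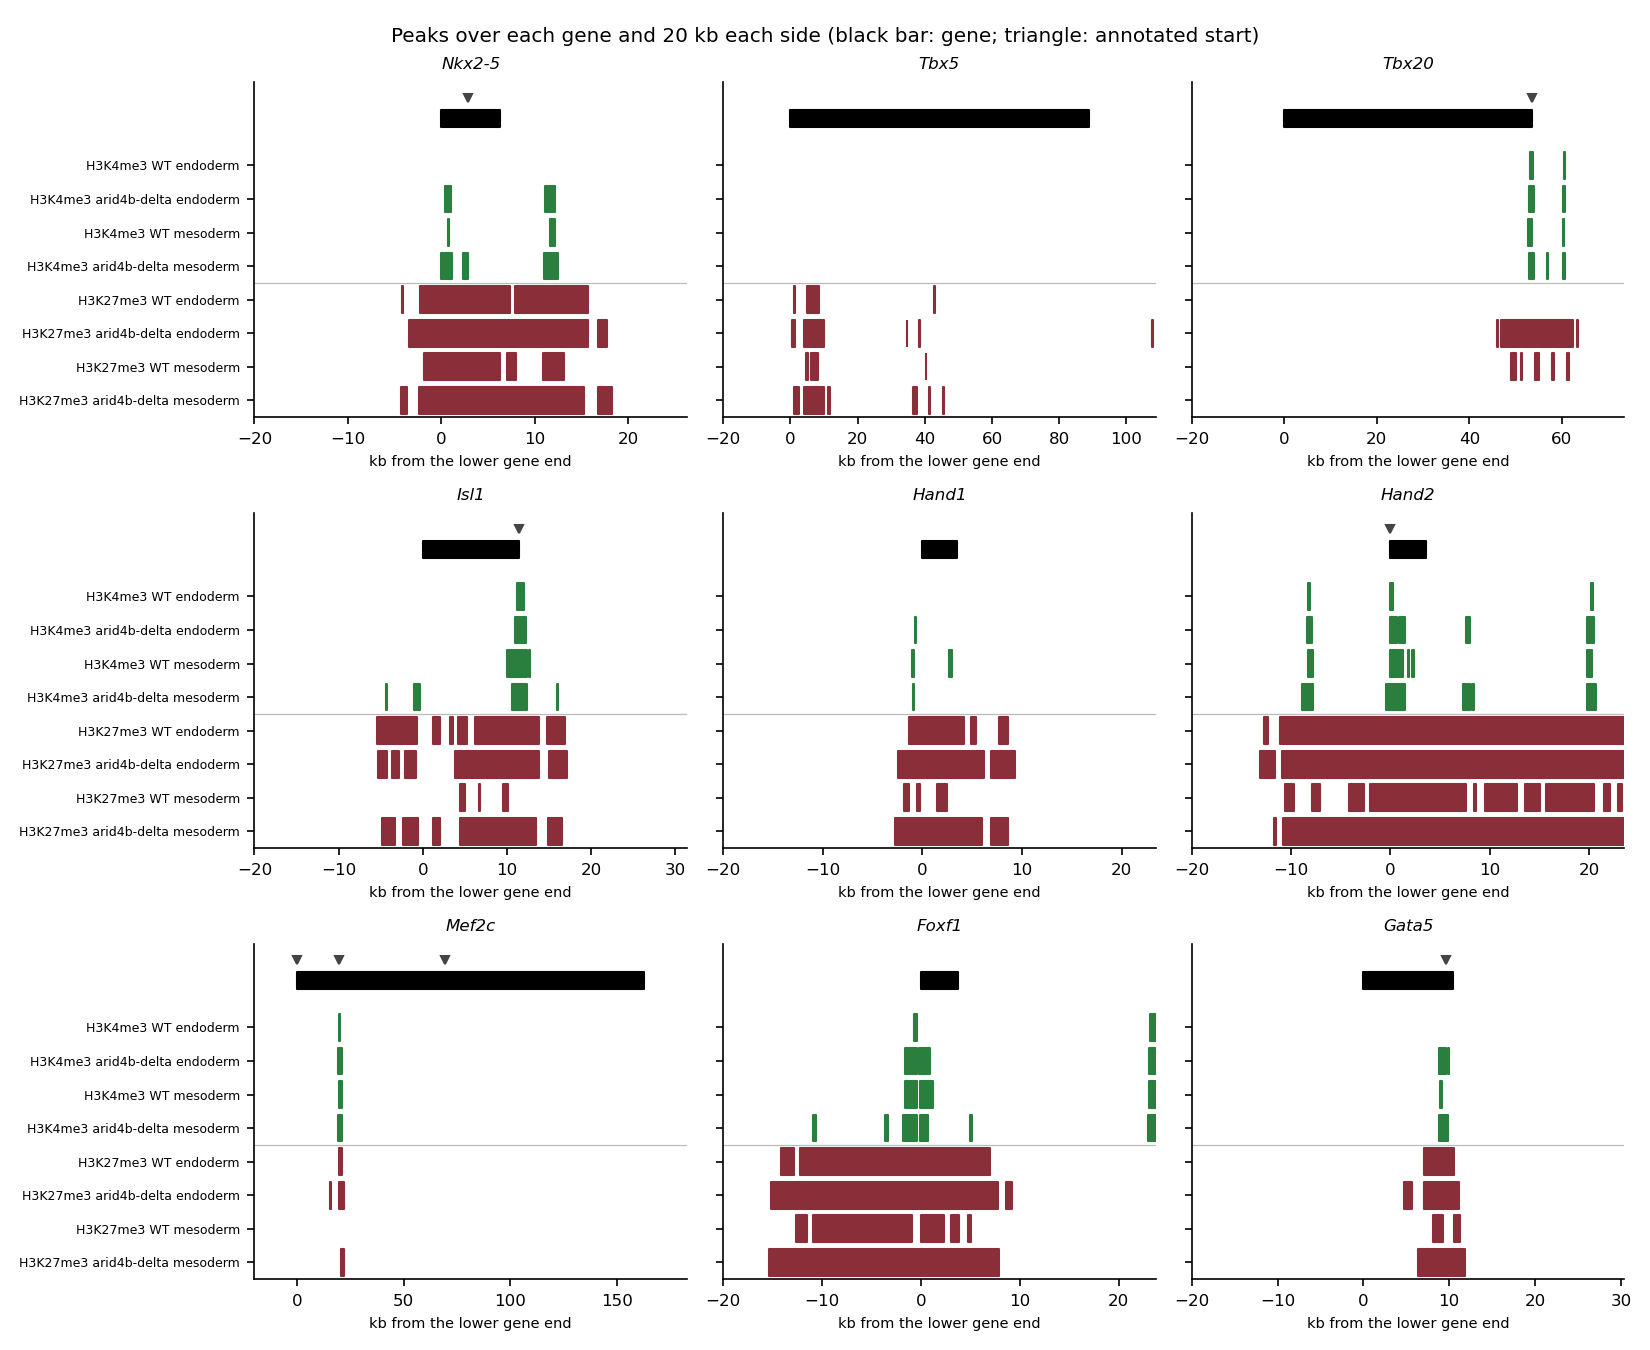
Peaks over each of the 9 genes with 20 kb each side. The x axis is the distance in kb from the lower gene end, each line of bars is 1 library with H3K4me3 in green and H3K27me3 in red, the black bar is the gene and triangles mark annotated starts. Hand2 and Foxf1 show long H3K27me3 peaks that are broken up in WT mesoderm, and Mef2c is marked only near its internal start.

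Set side by side, H3K4me3 at the member loci was narrowest in WT endoderm. Summed over the 9 loci it covered 3.3 kb in WT endoderm, 13.2 kb in arid4b-delta endoderm, 11.5 kb in WT mesoderm and 18.5 kb in arid4b-delta mesoderm. These are 0.468%, 1.88%, 1.64% and 2.63% of the loci, against 1.31%, 2.12%, 1.67% and 2.36% over the loci of all genes. In endoderm arid4b-delta had more H3K4me3 than WT at all 8 members with any, as did 99.0% of all loci covered in either, and the ratio of the sums was 4.02 against 1.62 over all genes. In mesoderm arid4b-delta had more at 7 of 8 members, Hand1 having less, against 97.5% of all loci, and the ratio was 1.6 against 1.41. Mesoderm had more H3K4me3 than endoderm at all 8 members in both genotypes, against 89.0% of loci in WT and 80.6% in arid4b-delta. The direction is therefore the common one in these lists. The ratio of mesoderm to endoderm was 3.5 at the members against 1.28 over all genes in WT, and 1.4 against 1.11 in arid4b-delta. Both ratios that stand furthest from those of all genes, 4.02 and 3.5, have the 3.3 kb of the WT endoderm library as their denominator. The sums of all libraries include the part of the Mthfsd site that lies within 20 kb of Foxf1.

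**Figure D3:**
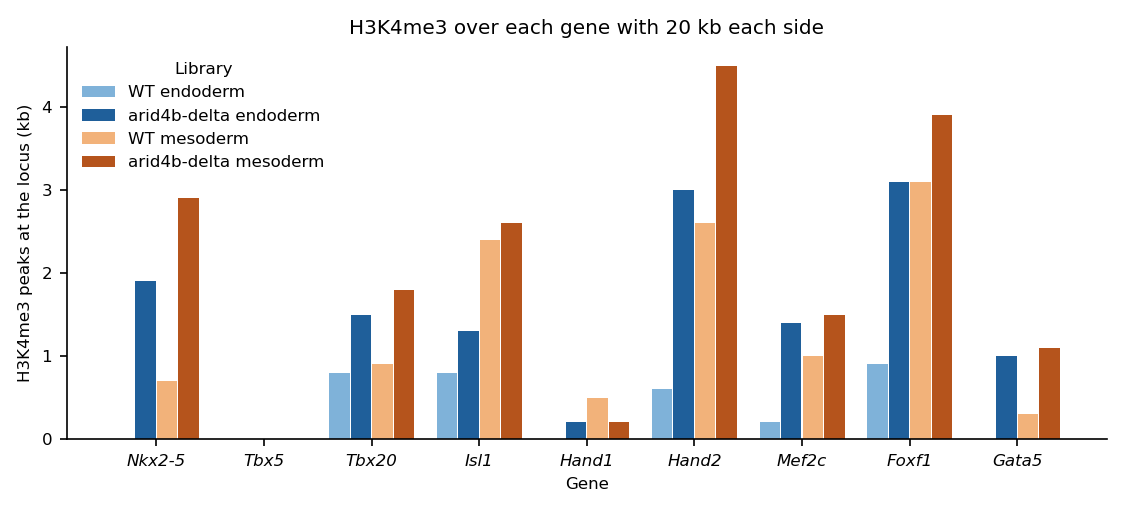
H3K4me3 at each member locus, the gene with 20 kb each side. Bars give the kb covered by peaks (y axis) per gene (x axis) and library (colour). Nkx2-5, Hand1 and Gata5 have no bar in WT endoderm and Tbx5 has none in any library, while the tallest bar is Hand2 in arid4b-delta mesoderm with 4.5 kb.

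H3K27me3 covered far more of the member loci than of the loci of all genes. It spanned 105.6 kb in WT endoderm, 137.4 kb in arid4b-delta endoderm, 60.4 kb in WT mesoderm and 119.3 kb in arid4b-delta mesoderm. Hand2 alone held 35.1, 36.0, 23.5 and 34.5 kb of these sums. The shares of the loci were 15.0%, 19.5%, 8.58% and 16.9%, against 1.11%, 1.62%, 0.569% and 1.4% over all genes. Such marking was not particular to the 9 genes. Promoter H3K27me3 lay at 66.7%, 88.9%, 66.7% and 66.7% of members. It lay at 73.1%, 80.8%, 61.5% and 76.9% of 26 other heart transcription factors. Among the 6 definitive endoderm markers the shares were 66.7%, 83.3%, 66.7% and 66.7%. In endoderm arid4b-delta had more than WT at 8 of 9 members, Isl1 having less, against 77.9% of covered loci. In mesoderm arid4b-delta also had more at 8 of 9, Tbx20 having less, against 88.0%. The ratios of arid4b-delta to WT were 1.3 in endoderm and 1.98 in mesoderm, both below the ratios of 1.45 and 2.46 over all genes. The endoderm direction turned with the 4 lists matched in length, where H3K27me3 covered 7.02% of the loci in WT and 2.93% in arid4b-delta.

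Between lineages the low library was WT mesoderm. In WT, only Tbx20 had more H3K27me3 in mesoderm than in endoderm, 1 of 9 members against 15.5% of covered loci, and the ratio of mesoderm to endoderm was 0.572 against 0.511 over all genes. In arid4b-delta, Tbx5 and Gata5 had more in mesoderm, against 31.7% of loci, and the ratio was 0.868 against 0.865. The members thus followed the whole list in both genotypes. Mef2c, Isl1 and Hand1 were the members with the smallest WT mesoderm share beside WT endoderm, at 0% against 0.713%, 2.85% against 32.5% and 4.15% against 15.9% of the locus.

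**Figure D4:**
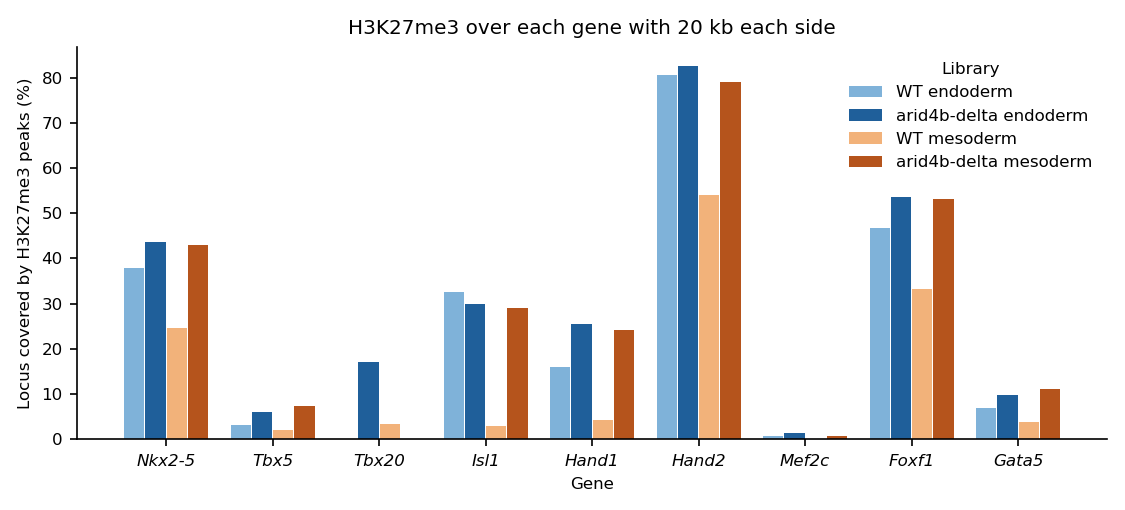
H3K27me3 at each member locus, the gene with 20 kb each side. Bars give the percent of the locus covered by peaks (y axis) per gene (x axis) and library (colour). The WT mesoderm bar is the lowest of the 4 at every gene except Tbx20, and Hand2 is the highest gene in all 4 libraries.

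Presence of a promoter peak gave the following differences between genotypes. In endoderm 3 members, Nkx2-5, Hand1 and Gata5, had H3K4me3 in arid4b-delta only, against 5.37% of all genes, and 0 in WT only, against 0.101%. The arid4b-delta only members in endoderm depended on the setting. They were Hand1 and Gata5 at annotated starts, Hand2 and Foxf1 with the upper 50% of each list, and Nkx2-5, Hand2 and Foxf1 with 500 bp covered. In mesoderm 1 member, Gata5, had H3K4me3 in arid4b-delta only, against 3.92%, and 0 members had it in WT only, against 0.119%. At annotated starts, with a window of 500 bp and with 500 bp covered, that member was Nkx2-5 instead. H3K27me3 was at 2 members, Tbx5 and Tbx20, in arid4b-delta endoderm only, against 4.89%, and at 0 in WT only, against 2.05%. In mesoderm it was at Isl1 in arid4b-delta only, against 7.68%, and at Tbx20 in WT only, against 0.726%. H3K27ac gave 0 members in every direction. Over all genes, endoderm had 4.49% with it in arid4b-delta alone and 4.7% with it in WT alone, and mesoderm 5.62% and 3.71%. The H3K27me3 direction in endoderm depended on how many peaks were kept, with 1 member for arid4b-delta and 2 for WT once both lists were matched in length by fold. With 9 members, counts of 1 to 3 rest on single peaks, several of them near the edge of the window as described for Tbx5 and Gata5.

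Between lineages, WT cells had H3K4me3 at Nkx2-5 and Hand1 in mesoderm only, 2 members against 3.15% of all genes, and at 0 members in endoderm only, against 0.548%. At annotated starts the 2 members in mesoderm only were Hand1 and Gata5. In arid4b-delta cells 0 members differed in either direction, against 1.48% in mesoderm only and 0.338% in endoderm only. H3K27me3 in WT was at Tbx20 in mesoderm only, against 1.01%, and at Isl1 in endoderm only, against 6.08%. In arid4b-delta it was at 0 members in mesoderm only, against 2.37%, and at Tbx5 and Tbx20 in endoderm only, against 3.31%. Matched in length, the arid4b-delta lists had 2 members in mesoderm only and 1 in endoderm only for H3K27me3. The difference between these lineage contrasts in the 2 genotypes was not tested.

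Taken as pairs of marks, 3 members carried both H3K4me3 and H3K27me3 in WT endoderm, namely Isl1, Hand2 and Foxf1, against 10.1% of all genes. In arid4b-delta endoderm 7 did, all except Tbx5 and Mef2c, against 14.2%. In WT mesoderm 5 did, Nkx2-5, Tbx20, Hand1, Hand2 and Foxf1, against 7.64%, and in arid4b-delta mesoderm 6 did, Nkx2-5, Isl1, Hand1, Hand2, Foxf1 and Gata5, against 14.2%. The peaks of both marks overlapped each other at 3, 7, 3 and 6 members in these conditions, so at Tbx20 and Hand1 in WT mesoderm they lay side by side. At annotated starts, with gene ends for Tbx5, Hand1 and Foxf1, 4, 7, 5 and 6 members carried both marks. Nkx2-5 was then among them in arid4b-delta mesoderm alone, while Mef2c joined in both endoderm conditions and Gata5 in WT mesoderm. By gene ends, Hand2 and Foxf1 carried both in all 4 conditions of the full lists. With the 4 lists of each mark matched in length, 2, 0, 5 and 3 members had both marks, so the order of the genotypes turned in endoderm and in mesoderm.

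Peaks over 1000 bp from both gene ends but within 20 kb of the gene were counted as distal, which by this rule takes in the internal start of Mef2c. H3K4me3 had 5 in WT endoderm, 8 in arid4b-delta endoderm, 12 in WT mesoderm and 20 in arid4b-delta mesoderm, which merge into 23 sites. Of these, 5 were called in all 4 libraries, 1 at Tbx20, 2 at Hand2, 1 at Mef2c and 1 at the Mthfsd end near Foxf1. H3K27me3 had 14, 16, 24 and 14 distal peaks, the 24 of WT mesoderm including 9 pieces of the Hand2 domain. H3K27ac had 0, 0, 0 and 1, so these loci held no H3K27ac peak apart from the one at Mthfsd.

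Likeness to other genes was taken as the number of equal calls among the 12 promoter calls by gene ends. Hand2 and Foxf1 had the same pattern, H3K4me3 and H3K27me3 in all conditions and no H3K27ac, and each shared it with 999 other genes, its partner among them, or 4.56% of all. Among the listed heart genes these were Bmp2, Eomes, Foxc2, Foxf2, Gata6, Hcn4, Hey2, Kdr, Ryr2, Tbx18, Tbx2, Wnt11 and Zfpm2. Nkx2-5 and Hand1 had the same pattern, lacking only H3K4me3 in WT endoderm, as did Mesp1, the earliest cardiac mesoderm factor, with Tbx1, Irx4, Osr1 and Ihh. Each of the 2 members shared it with 263 other genes, its partner among them, or 1.2% of all. Isl1 shared its pattern with 378 other genes, or 1.73%, with Dkk1, Smarcd3 and Vegfa among them. Tbx5 shared its own with 155, or 0.708%, with Gata4 among them, whose only promoter call was H3K27me3 in arid4b-delta endoderm. Tbx20 and Gata5 matched no listed heart gene, and shared their patterns with 12 and 112 other genes, or 0.0548% and 0.512%. The empty pattern of Mef2c was that of 35.8% of all genes.

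Some genes of the wider heart program had H3K27ac in each of the 4 conditions. Of 26 other heart transcription factors, 2 had it at the promoter in WT endoderm, 2 in arid4b-delta endoderm, 6 in WT mesoderm and 4 in arid4b-delta mesoderm. The endoderm shares, 7.69% in each genotype, lie below the 26.6% and 26.4% of all genes. The mesoderm shares, 23.1% and 15.4%, lie below the 29.6% and 31.5% of all genes. Foxc1, a forkhead factor of paraxial and second heart field mesoderm, had it in WT only with a fold of 9.76, as did Mesp2 with 5.57 and Tbx3 with 5.45. Mef2d, Hey1 and Sall1 had it in both genotypes. Of 19 heart-inducing signals and receptors, 4 were acetylated in WT endoderm, 3 in arid4b-delta endoderm, 7 in WT mesoderm and 3 in arid4b-delta mesoderm. The endoderm pair is 21.1% and 15.8%, against 26.6% and 26.4% of all genes. The mesoderm pair is 36.8% and 15.8%, against the same 29.6% and 31.5%. The ligands Bmp7, Wnt5a, Fgf10 and Fgf8 and the receptor Pdgfra were so in WT only, with folds of 7.63, 6.74, 6.54, 5.32 and 6.4. Nodal, a ligand of the early streak, was so in arid4b-delta only with 6.35, and the receptors Bmpr1a and Fgfr1 in both. Over all genes in mesoderm, 3.71% had promoter H3K27ac in WT only and 5.62% in arid4b-delta only.

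H3K27me3 in mesoderm was called more often in arid4b-delta in the same lists, as it was over all genes (7.68% in arid4b-delta only). It lay at 16 of the 26 factors in WT and 20 in arid4b-delta, with Mesp2, Smarcd3, Sall1 and Hey1 marked only in arid4b-delta and 0 only in WT. Of the 19 signals and receptors it lay at 8 in WT and 14 in arid4b-delta, with Dkk1, Fgf10, Bmp7, Wnt2, Vegfa, Bmp4 and Wnt5a in arid4b-delta only and Nodal in WT only. H3K4me3 was called in arid4b-delta mesoderm only at Srf, Nkx2-6 and Bmp4, against 3.92% of all genes. In WT mesoderm only it was called at Mesp2, against 0.119%. The 20 cardiomyocyte genes, which encode sarcomere, calcium handling and channel proteins, had the same calls in every library, with H3K4me3 at 5, H3K27me3 at 2 and H3K27ac at 2, Atp2a2 and Gja1.

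**Figure D5:**
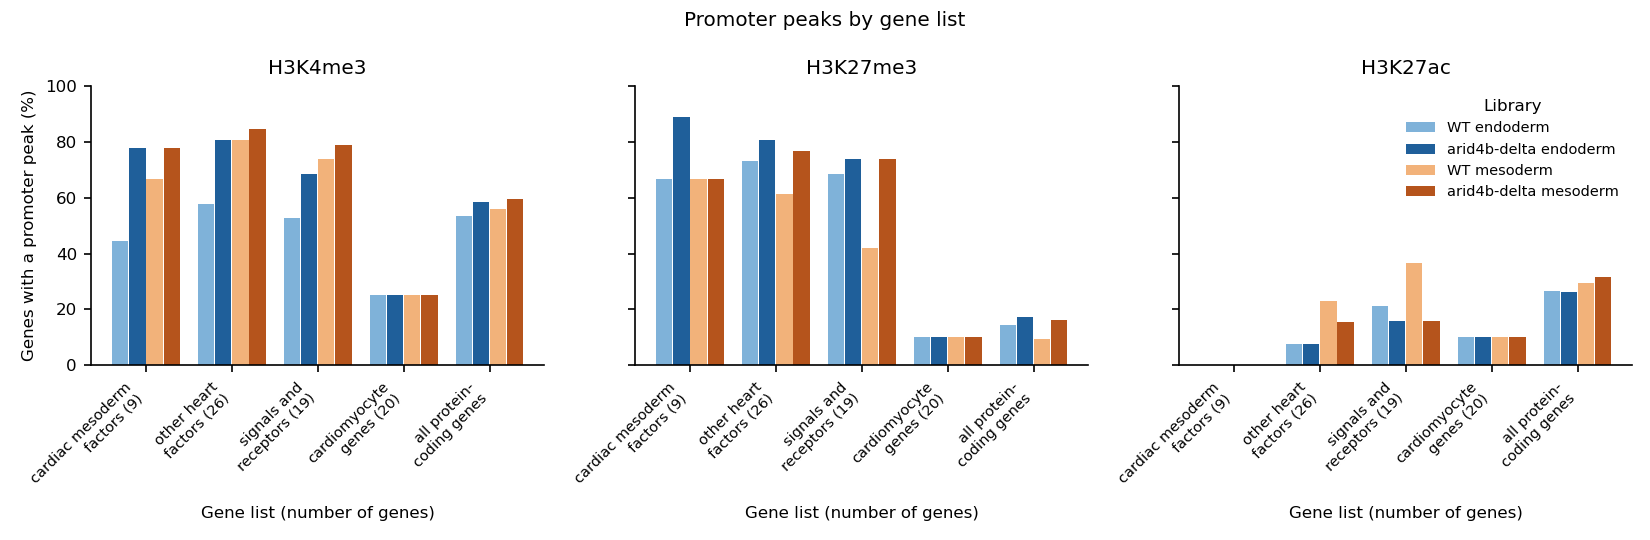
Promoter peaks by gene list. Bars give the percent of each list's genes with a promoter peak (y axis) per list (x axis, number of genes in parentheses) and library (colour), for H3K4me3, H3K27me3 and H3K27ac. The 9 members have no H3K27ac bar, while the signals and receptors reach 36.8% in WT mesoderm.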

How the data were processed

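The 12 deposited peak lists, 1 per mark, lineage and genotype, were analysed, and the 4 input samples were not used here. Bowtie2, Picard and MACS2 were used with build mm10, per the submitters' processing notes. Versions and settings are not given in the sources used here. The lists hold broad peaks for H3K27me3 and narrow ones for the other marks, each called per library. Each deposited list holds the authors' score, their fold enrichment (a ratio over background), their −log10 p-value and −log10 q-value, and, for narrow peaks, another value, the summit offset. Folds served for description and ranking inside a list, and −log10 q only to describe a list.

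Peaks were joined to RefSeq genes of GRCm38.p6 with Python 3.11.15, numpy 2.4.6 and pandas 2.3.3. The gene table has no strand, so both gene ends count as promoter, with 1000 bp either side and at least 1 bp of overlap. Exons and introns were not used here. Annotated starts came from the promoter table, which covers 17492 genes and 6 of the 9 members. The peak join was tested on simulated intervals.

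The members, the lists and the comparisons were chosen with earlier results of these data known. Named genes are all 9 members, Gata4, Gata6, Mesp1 and Tbx3, and, from the heart lists, genes with promoter H3K27ac in mesoderm (at most 8 per list), genes whose mesoderm call differs between genotypes (at most 6 per mark and direction, by fold) and genes equal to a member in all 12 calls. A gene that this rule takes in is not reported here. The signals list had 20 entries, of which Hand2os1 is not protein-coding and was left out. With 1 library per group no test was run. Alternatives changed the window, the gene end used, the overlap, the distance and the number of peaks kept in each list.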

Additional observations from a re-analysis of the deposited data

Results flagged for a closer look

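H3K27me3 at Tbx20 moved in opposite directions with genotype in the 2 lineages. The arid4b-delta library covered 15.9 kb more of the locus than WT in endoderm, and the difference was -3.2 kb in mesoderm. Each direction rests on 1 library per group, and the difference between lineages was not tested. In arid4b-delta endoderm nearly all of the coverage was 1 peak of 15.4 kb with a fold of 1.75 and −log10 q of 1.04. The WT mesoderm peaks had folds of 1.03 to 1.24 with −log10 q of 3.39 to 7.41.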

How the results depend on the processing

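Of the values recomputed under another choice, 234 stayed within 1.5 times or did not change, 68 moved further and 2 counts of members changed direction. No choice gave any member a promoter H3K27ac peak. Values are counts of members unless stated. A count can stay equal while the genes behind it change. The member with H3K4me3 in arid4b-delta mesoderm only was Gata5, but Nkx2-5 with a window of 500 bp. For H3K27me3 that member was Isl1, but Tbx5 with a window of 2500 bp. Both count among the 234, as do the H3K27ac promoter counts, which held no member under any choice. The 234 therefore do not measure how stable the named members are.

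With the upper 50% of each list by fold, H3K4me3 marked 2 members in WT endoderm, 4 in arid4b-delta endoderm, 2 in WT mesoderm and 2 in arid4b-delta mesoderm. H3K27me3 marked 5 in arid4b-delta endoderm, 2 in WT mesoderm and 3 in arid4b-delta mesoderm. In mesoderm H3K4me3 was then at 0 only in arid4b-delta. Between lineages it was at 1 in mesoderm only and 1 in endoderm only in WT, and at 2 in endoderm only in arid4b-delta. H3K27me3 was in arid4b-delta only at 1 in endoderm, in WT only at 0 in mesoderm, and, in WT, in mesoderm only at 0 and in endoderm only at 2. Both marks were at 1, 2, 1 and 2 members, and H3K27me3 covered 6.86%, 8.77%, 2.69% and 7.84% of the loci. Distal H3K4me3 peaks numbered 1, 1, 1 and 3, distal H3K27me3 peaks 5 in WT endoderm, 7 in WT mesoderm and 9 in arid4b-delta mesoderm, and distal H3K27ac peaks 0 in arid4b-delta mesoderm.

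With lists matched in length by fold, these 2 counts of members marked in 1 library only changed direction. H3K27me3 in endoderm was at 1 member only in arid4b-delta and 2 only in WT, and in arid4b-delta it was at 2 in mesoderm only and 1 in endoderm only. In mesoderm WT only held 3 for H3K27me3 and 1 for H3K4me3, and within WT mesoderm only held 3 for H3K27me3. The order of the genotypes also turned in values per library. The counts above match the pair of lists compared, and distal peaks the pair of genotypes. Members per library, both marks and coverage match all 4 lists of a mark, so these values do not add up with the counts above. In endoderm H3K27me3 lay at 4 members for WT beside 2 for arid4b-delta, and its distal peaks numbered 14 beside 13. Both marks were at 2 and 0 in endoderm and 5 and 3 in mesoderm. H3K27me3 coverage was 7.02% in WT endoderm and 2.93% in arid4b-delta endoderm. Distal peaks in arid4b-delta mesoderm numbered 11 for H3K4me3, beside 12 in WT, 9 for H3K27me3 and 0 for H3K27ac. The genotype direction of H3K27me3 and of both marks in endoderm thus depends on the number of peaks kept.

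With 500 bp of the window covered, H3K4me3 marked 2 in WT endoderm. In mesoderm H3K27me3 was at 2 only in arid4b-delta and 0 only in WT, and in WT at 2 in endoderm only and 0 in mesoderm only. Both marks were at 1 in WT endoderm and 2 in WT mesoderm.

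With a window of 500 bp, H3K4me3 was at 1 in WT mesoderm only beside arid4b-delta, 1 in mesoderm only in WT and 1 in endoderm only in arid4b-delta. H3K27me3 in WT mesoderm only was at 0 beside either comparison library, and both marks were at 3 in WT mesoderm. With a window of 2500 bp, H3K4me3 was at 0 in arid4b-delta mesoderm only, and H3K27me3 in arid4b-delta endoderm only was at 1 beside WT and 1 beside mesoderm. With annotated starts, H3K27me3 in WT was at 2 in endoderm only, and H3K4me3 in arid4b-delta at 1 in mesoderm only.

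Within 50 kb, distal H3K4me3 peaks numbered 10 in WT endoderm and 15 in arid4b-delta endoderm, and distal H3K27ac peaks 1 in WT endoderm, 2 in arid4b-delta endoderm and 3 in arid4b-delta mesoderm. Over 2500 bp from a gene end, distal H3K4me3 peaks numbered 7 in WT mesoderm. For all these values the cause was not tested. No paired analysis was possible because each group is 1 library and no test was run. The H3K27me3 lists reach down to a −log10 q of 0.307 and the H3K4me3 lists to 2.02.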
